A study of Rattus norvegicus with 30 samples.

Results

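Rat hepatocytes kept in culture without drug were compared at 48 and 24 h after dosing with vehicle. The comparison rests on 10 of the 30 arrays of an acetaminophen study: the 5 wells that received 1% DMSO and were harvested at 48 h, and the 5 such wells harvested at 24 h, chosen by their sample titles. The other 20 arrays come from wells given 500 or 5000 µM acetaminophen, 5 for each dose at each time, and are used here only to set the same interval of time beside the vehicle wells. All cells were cryopreserved primary hepatocytes of male Sprague Dawley rats, bought frozen from one supplier, thawed, plated on collagen, overlaid with Matrigel and treated on day 3 of culture, so that both vehicle groups had already spent days in the dish. Per the labels the 5 wells of a group were separate cultures. The labels do not say how many animals the cells came from, so the spread is that between wells. Values are linear MAS5 signal intensities, and differences are on the log2 scale.

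Hepatocytes taken out of the liver slowly lose the expression of genes that mark them as hepatocytes. Cytochrome P450 enzymes, which oxidise drugs and steroids, are among the first to decline, and plasma proteins, which the liver secretes into blood, vary widely in how long they last. A collagen and Matrigel sandwich is used to delay this loss, while cytoskeletal, adhesion and progenitor-type genes are known to rise as cells spread and flatten.

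The cells carried hepatocyte RNA at both times. All 10 hepatocyte markers on the list were on the array and bright enough to be tested, and their summed signal ran from 420385 to 531005 at 24 h and from 419882 to 515708 at 48 h. Of the 10, Hnf4a changed and the other 9 did not pass the test. Of 16 Kupffer and leukocyte markers on the array 3 were bright enough to be tested, as were 2 of 14 stellate markers, 3 of 12 endothelial markers and 2 of 8 cholangiocyte markers. The summed signals at 24 and 48 h were 25313 to 32691 and 26152 to 30144 for the Kupffer and leukocyte list, 3264 to 3896 and 3437 to 4323 for the stellate list, and 2575 to 3680 and 2279 to 3231 for the endothelial list. The cholangiocyte sum was higher at 48 h, 22526 to 23617 against 18620 to 20717, where Epcam rose, while Krt19 and Krt7, the defining keratins of bile ducts, had mean signals of 186 and 12.2 at 24 h and 226 and 21.1 at 48 h. Most of the Kupffer and leukocyte sum came from Cd14 and Lyz2, with mean signals of 18457 and 7365 at 24 h. That sum says little of the members too dim to be tested. In such bulk samples fewer cells of a type and less RNA per cell cannot be told apart.

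One measure of RNA quality differed between the groups and accompanies every result. The arrays carry control probe sets at the 3' and 5' ends of β-actin mRNA, and the log2 ratio of the 2 signals grows as the labelled RNA becomes shorter. At 24 h the ratios of the 5 arrays were 1.99, 1.96, 1.90, 1.54 and 1.49, and at 48 h 1.34, 1.31, 1.29, 1.18 and 1.09. Every 48 h array lay below every 24 h array. The means were 1.78 ± 0.24 and 1.24 ± 0.11 (SD, n = 5 each), a difference of -0.53 with an exact two-sided permutation p of 0.00794, the smallest that 5 against 5 arrays can give. The GAPDH ratio moved the same way, from 0.230 ± 0.062 to 0.105 ± 0.023. Over all 30 arrays the β-actin ratios left a gap between 1.54 and 1.74. All 5 vehicle arrays of 48 h and 2 of 24 h, replicates 4 and 5, lay below it.

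**Figure D1:**
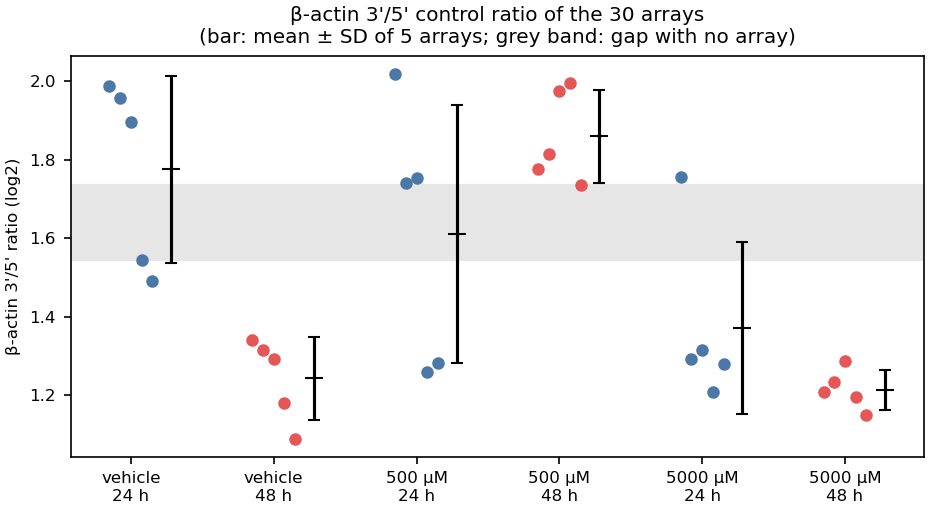
β-Actin 3'/5' log2 ratio (vertical axis) of each of the 30 arrays by dose and time, with the mean ± SD of 5 arrays beside the points and the gap between 1.54 and 1.74 shaded. The 5 vehicle arrays at 48 h lie between 1.09 and 1.34, below all 5 at 24 h, whereas at 500 µM the mean is higher at 48 h, 1.86, than at 24 h, 1.61.

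Of 8530 genes tested with limma, 2770 (32.5%) changed between 24 and 48 h at a Benjamini-Hochberg adjusted p under 0.05. Of these, 1145 (13.4% of genes tested) were higher at 48 h and 1625 (19.1%) lower. Most changes were small, and 42 genes (0.492%) changed at least 2-fold, 18 up (0.211%) and 24 down (0.281%). The 5 arrays of one time lay wholly apart from those of the other for 1944 genes (22.8%). When arrays were centred on their medians, 1699 genes were higher and 1215 lower, so the balance of directions moved with the scaling and is not reported as a result. With the β-actin ratio as a covariate 440 genes were called (5.16%), 200 higher (2.34%) and 240 lower (2.81%), and 399 of them (4.68%) were also called without it and in the same direction, 178 higher (2.09%) and 221 lower (2.59%). With the comparison restricted to arrays below the gap, 2 against 5, 1211 genes were called (14.2%). Culture time and the ratio move together, and for genes called only without the covariate their effects cannot be told apart. The genes described below were called both ways unless stated.

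Many drug-metabolising P450 enzymes fell. Of 31 tested members of a list of P450 enzymes and their electron donors, 15 were lower at 48 h, none was higher, and the median change was -0.24 against -0.01 over all genes. With the β-actin covariate 11 were lower. The shares of all genes called lower were 19.1% without the covariate and 2.81% with it. The falls were also seen in dosed wells, on arrays not shared with the vehicle comparison: 12 members were called lower in vehicle and at both doses, 12 in all at 500 µM (with 2 higher) and 15 at 5000 µM (with 8 higher). Over all genes 19.6% were called at 500 µM, 26.9% at 5000 µM, and 1.14% were called lower in vehicle and at both doses. The steepest was Cyp2c13, a steroid-hydroxylating enzyme of male rat liver, with signals of 7542, 6399, 6813, 7454 and 6662 at 24 h and 2435, 1932, 2317, 2598 and 2333 at 48 h. No 48 h well came near the lowest 24 h well. The fall was 3.01-fold (log2 change -1.59, SE 0.08, limma adjusted p = 3.56e-16), and -1.60 with the covariate.

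Cyp1a2, the enzyme that clears caffeine and an oxidiser of aromatic amines, gave 10328, 8081, 8941, 9211 and 9528 at 24 h and 4154, 3756, 3449, 3031 and 2646 at 48 h. The groups did not overlap, and the fall was 2.73-fold (log2 -1.45, SE 0.12, limma adjusted p = 2.30e-10). Cyp3a2, a steroid and drug hydroxylase typical of male rats, gave 9649, 6540, 8024, 8404 and 7831 at 24 h and 3165, 3190, 3568, 2900 and 3230 at 48 h. It fell 2.51-fold (log2 -1.33, SE 0.08, limma adjusted p = 1.57e-13). Cyp2c11, the main male-specific P450 of rat liver and a target of pulsatile growth hormone, was bright at 24 h with signals of 11922, 18933, 15954, 15869 and 18610. At 48 h it gave 7144, 8949, 7391, 7829 and 8210, all below the lowest 24 h well, a 2.04-fold fall (log2 -1.03, SE 0.12, limma adjusted p = 2.15e-07). Cyp2e1, a principal enzyme that activates acetaminophen, also fell in these wells without the drug, from 5806, 8258, 7461, 7221 and 7990 to 3581, 4566, 3432, 3739 and 4742 (log2 -0.87, SE 0.11, limma adjusted p = 4.38e-07).

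Cyp2c23, an arachidonic acid epoxygenase, fell by 1.00, Cyp2c7 by 0.90, Cyp3a9 by 0.75 and Cyp3a18 by 0.31 on the log2 scale, with no overlap between times in any of the 4. Each was also called with the covariate. Por, the reductase that hands electrons to all microsomal P450 enzymes, is the member whose call held least well. It gave a change of -0.24 (limma adjusted p = 0.0174), but its groups overlapped, the call was lost with the covariate and without replicate 2 of 24 h (adjusted p = 0.0524), and the mean of its probe sets changed by 0.06. The decline did not cover the family. Cyp1a1, the dioxin-inducible partner of Cyp1a2, had mean signals of 23844 ± 2184 and 25182 ± 5705 (log2 change 0.05, SE 0.15, limma adjusted p = 0.817). Cyp3a23-3a1, the PXR-inducible relative of Cyp3a2, had 66660 ± 8309 and 69564 ± 5451 (0.07, SE 0.08, limma adjusted p = 0.535), among the brightest signals on the arrays, where a change can be compressed; this was not tested. Probe sets of such close relatives can bind each other's RNA, so values within the Cyp2c and Cyp3a groups are not fully separate.

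The promoters of these Cyp3a genes are alike. In the RefSeq promoter table (build GRCr8, 250 bases before to 50 after the start) 254 of the 300 bases of Cyp3a2 aligned to an identical base of Cyp3a23-3a1 in a global alignment. Both hold the letters CAAAGTCCA, a pattern bound by nuclear receptors of the HNF4 type, which a search of both strands found in 131 of 33469 promoters (0.391%) and in 2 of the 27 P450 list members that had an entry. The stretches around it are shown for the gene that fell and the one that was not called, whose difference in change was not tested, with the pattern in capitals, 97 and 110 bases before the start, at chr12:14343901-14343999 and chr12:14398860-14398958, both on the minus strand.
Cyp3a2: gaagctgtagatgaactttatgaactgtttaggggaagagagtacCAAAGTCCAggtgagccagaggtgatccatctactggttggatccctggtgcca
Cyp3a23-3a1: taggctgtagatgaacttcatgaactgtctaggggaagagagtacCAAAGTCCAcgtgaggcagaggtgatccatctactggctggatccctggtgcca
The match is a description of the letters and says nothing of binding in these cells.

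**Figure D2:**
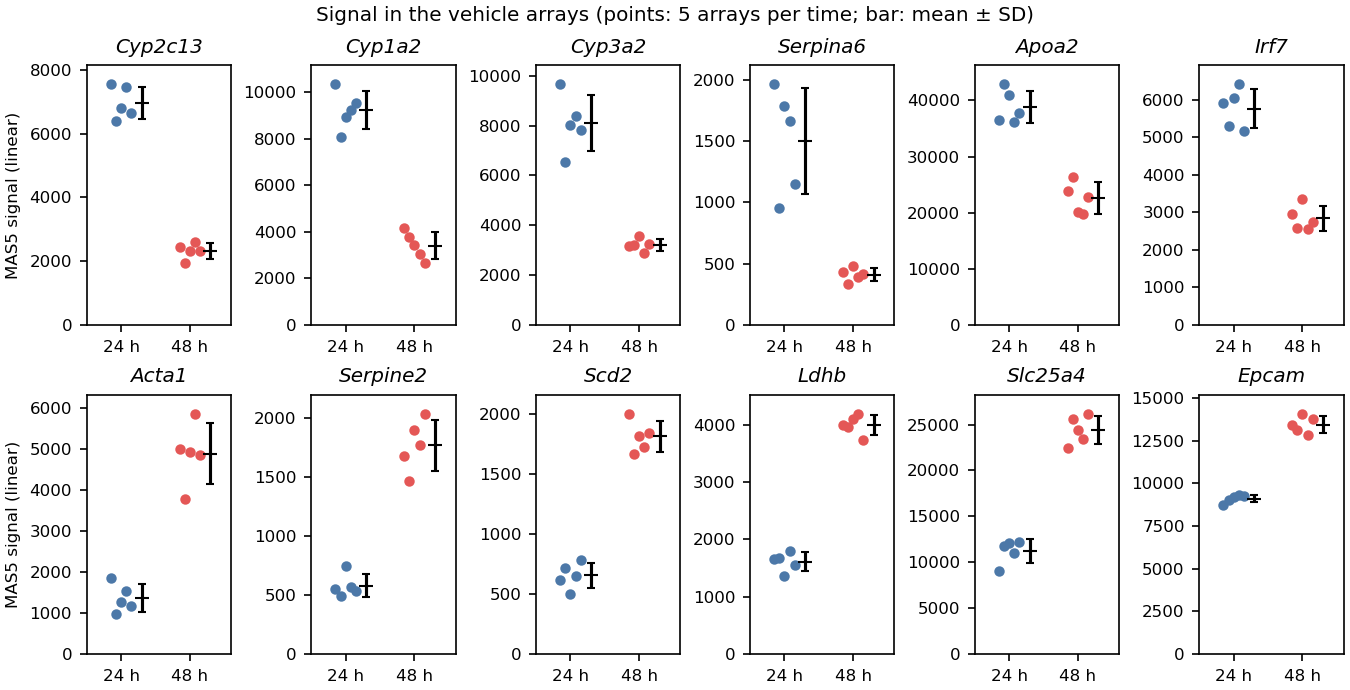
Linear MAS5 signal (vertical axes, each from 0) of 12 genes in the 5 vehicle arrays at 24 h (blue) and the 5 at 48 h (red), with the mean ± SD beside the points. In all 12 the points of the 2 times lie apart, with Cyp2c13 falling from a mean of 6974 to 2323 and Acta1 rising from 1365 to 4891.

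Many plasma proteins fell, and several of the brightest did not pass the test. Among 31 tested secreted carriers 15 were lower and 1 higher, beside 19.1% and 13.4% of all genes. With the covariate 8 were lower and none higher, beside 2.81% and 2.34%. The median change was -0.04, and 0.02 with arrays centred. Serpina6, corticosteroid-binding globulin, fell most, from 1962, 952, 1789, 1660 and 1149 to 433, 336, 478, 388 and 412. Its wells varied 2-fold at 24 h, yet none overlapped those at 48 h, and the fall was 3.56-fold (log2 -1.83, SE 0.19, limma adjusted p = 1.57e-08). Of the 5 signals at 48 h 4 lay below 469, the mean signal of the dimmest gene tested, so the size of the fold is less sure than its direction. Over the same interval its log2 change was -2.17 at 500 µM and -2.22 at 5000 µM. Afm, the vitamin E carrier afamin, fell by 0.97, Itih2, a hyaluronan-binding inhibitor chain, by 0.94, Pon1, the HDL-borne paraoxonase, by 0.69, and Lcat, which esterifies plasma cholesterol, by 0.62. In these 4 the arrays of the 2 times lay apart and the calls held with the covariate. A second Pon1 probe set gave 0.23, and with the mean of both Pon1 was not called.

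Albumin itself did not pass the test. Alb gave 37145, 50629, 57934, 44972 and 45851 at 24 h and 49708, 66155, 55921, 48336 and 48904 at 48 h, groups that overlap (log2 change 0.19, SE 0.12, limma adjusted p = 0.217). Its other probe set gave 0.25. Whether signals this bright compress a change was not tested here either, nor for the other bright plasma proteins. Ttr, the thyroxine and retinol carrier transthyretin, had means of 49152 ± 6021 and 49444 ± 5361. The clotting proteins prothrombin (F2), factor IX (F9) and protein C (Proc) changed by -0.01, -0.02 and 0.02, each with an SE of 0.06.

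Other protease inhibitors of blood fell beside Serpina6. Serpina3c, of the kallikrein-binding serpin cluster, gave 16330, 13965, 17694, 16328 and 16281 at 24 h and 5287, 4652, 5241, 5656 and 6109 at 48 h. All 48 h signals lay far under the 24 h signals, a 2.99-fold fall (log2 -1.58, SE 0.10, limma adjusted p = 3.55e-13). Serpina3l, of the same cluster, fell 2.24-fold (log2 -1.16, SE 0.07, limma adjusted p = 7.20e-14). The probe sets of this serpin cluster can share RNA. A2m, the broad inhibitor α2-macroglobulin and an acute phase protein of the rat, fell from 51365, 42928, 53875, 44441 and 44638 to 23669, 21927, 26437, 27122 and 17283 (log2 -1.04, SE 0.14, limma adjusted p = 2.71e-06). The acute phase list as a whole held 9 falls and 2 rises in 25, beside 19.1% and 13.4% of all genes. With the covariate it held 4 falls and 1 rise, beside 2.81% and 2.34%. Lbp, which binds bacterial lipopolysaccharide, rose by 0.46 and was called higher at both doses too. Hp, haptoglobin, and Fgb, the fibrinogen β chain, changed by 0.16 (SE 0.10) and -0.02 (SE 0.07) and were not called.

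Complement fell more broadly than it rose. Of 20 tested members 11 were lower and 2 higher, beside 19.1% and 13.4% of all genes, with a median of -0.25. With the covariate 7 were lower and 1 higher, beside 2.81% and 2.34%. The falls included parts of the membrane attack complex, which forms the lytic pore: C9 fell by 0.53, C8b by 0.41, C8g by 0.37 and C6 by 0.36 on the log2 scale, all with the covariate as well. C3, the central component, gave 53717, 54254, 58068, 48582 and 54593 at 24 h and 41540, 44872, 37852, 40082 and 38934 at 48 h. The groups were apart and the fall was 0.41 (SE 0.07, limma adjusted p = 3.41e-05), against -0.27 with the covariate. C5 fell by 0.58 but was not called with the covariate (adjusted p = 0.729). Cd46, a membrane protein that protects cells from complement, rose by 0.86 from a low signal of 324 ± 66.2.

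Of 20 coagulation and fibrinolysis genes 9 were lower and 2 higher, and 3 and 1 with the covariate. The shares over all genes were 19.1% lower and 13.4% higher, and 2.81% and 2.34% with the covariate. Plg, plasminogen, fell by 0.46, while Plat, its tissue activator, rose. Plat gave 736, 577, 677, 751 and 566 at 24 h and 1247, 997, 1389, 1553 and 1496 at 48 h, without overlap (log2 change 1.01, SE 0.19, limma adjusted p = 0.000156). Among 20 genes of lipoprotein assembly 8 were lower and 2 higher, and 3 and none with the covariate. Apoa2, the second protein of HDL, went from 36533, 42846, 40948, 36156 and 37732 to 23905, 26446, 20086, 19678 and 22875, with a clear step between the 2 sets of wells. Its fall was 1.73-fold (log2 -0.79, SE 0.07, limma adjusted p = 4.59e-10), and Lipc, hepatic lipase, fell by 0.54 and Apoc1 by 0.42. Apoa1, the main HDL protein, and Apob, the backbone of VLDL, changed by 0.10 (SE 0.08) and -0.12 (SE 0.09) and were not called. Lrp1, a remnant receptor, went from 2301 ± 313 to 1156 ± 235, a call that was lost with the covariate (-0.44, adjusted p = 0.0905) and with the mean of its probe sets (-0.57).

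Liver-enriched transcription factors were lower in 12 of 35 and higher in 2, beside 19.1% and 13.4% of all genes. With the covariate, which called 5.16% of all genes, 1 call remained. That gene was Hnf4a, the nuclear receptor that maintains hepatocyte identity, with 14051, 17887, 15137, 14199 and 15357 at 24 h and 9066, 9527, 8668, 9324 and 9410 at 48 h. The wells at 48 h were tightly grouped under those at 24 h, and the fall was 1.66-fold (log2 -0.73, SE 0.10, limma adjusted p = 1.65e-06), or -0.44 with the covariate (adjusted p = 0.00598). At 500 µM Hnf4a changed by 0.07 over the same interval, and its 2 other probe sets gave 0.17 and -0.36 in vehicle. Cebpa fell by 0.28 and Gata4 by 0.57 only without the covariate, Gata4 was not called with the mean of its probe sets (-0.11), and Foxa2, a pioneer factor, changed by 0.17 (SE 0.09) and was not called.

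Many interferon-stimulated genes fell. These antiviral genes are switched on by type I interferon through STAT and IRF factors that bind a GAAA repeat, the interferon-stimulated response element. Of 38 tested genes of interferon response and antigen presentation 14 were lower and 4 higher, beside 19.1% and 13.4% of all genes, with a median of -0.18. With the covariate 8 were lower and 1 higher, beside 2.81% and 2.34%. Over the same interval 10 were lower and none higher at 500 µM, and 22 lower and 3 higher at 5000 µM. Of all genes 7.87% were lower and 11.7% higher at 500 µM, and 16% and 10.8% at 5000 µM. Irf7, the master regulator of the response, gave 5894, 5298, 6031, 6400 and 5159 at 24 h and 2962, 2582, 3345, 2550 and 2744 at 48 h. The times did not overlap, and Irf7 fell 2.03-fold (log2 -1.02, SE 0.10, limma adjusted p = 5.51e-09). Mx2, an antiviral GTPase, went from 3614, 2121, 2831, 3544 and 1959 to 777, 1262, 1556, 980 and 1160, a wide spread at both times but no overlap (log2 -1.29, SE 0.20, limma adjusted p = 2.06e-05). A second Mx2 probe set gave 0.08. Isg15, the ubiquitin-like modifier, fell by 0.74, Usp18, which removes it, by 0.70, and Oas1a, an oligoadenylate synthetase, by 0.65, each also with the covariate. Genes of antigen presentation are on the same list. RT1-CE5, a class I histocompatibility chain, rose by 0.65, B2m, its light chain, changed by 0.07 (SE 0.08) and was not called, although its other probe set gave -0.21 (SE 0.06, limma adjusted p = 0.018), and Psmb10, an immunoproteasome subunit, rose by 0.48 but not with the covariate. RT1 genes are near copies of each other, and the values of single members are uncertain.

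The response element was common in these promoters whichever way a gene moved. The element was searched on both strands as GAAA, any 2 bases and GAAA again, and was found in 1312 of 33469 RefSeq promoters (3.92%) and in 209 of 7242 tested genes with an entry (2.89%). It was present in 20 of the 31 list members that had an entry. Among these it was in 7 of 10 that fell, in 2 of 3 that rose and in 11 of 18 not called. Stretches of 4 promoters, 1 per gene, are shown to set genes that fell (Irf7, Oas1a), one not called by its brightest probe set (B2m) and one that rose (Psmb10) side by side, with every match in capitals.
Irf7: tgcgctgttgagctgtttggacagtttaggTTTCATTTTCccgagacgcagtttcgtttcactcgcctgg
Oas1a: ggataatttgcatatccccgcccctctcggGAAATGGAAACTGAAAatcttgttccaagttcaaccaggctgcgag
B2m: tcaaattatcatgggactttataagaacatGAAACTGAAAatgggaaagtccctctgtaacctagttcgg
Psmb10: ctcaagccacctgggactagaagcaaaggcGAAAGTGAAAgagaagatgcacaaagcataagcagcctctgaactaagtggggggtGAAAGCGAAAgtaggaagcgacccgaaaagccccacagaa
They lie in GRCr8 at chr1:205800053-205800122 on the minus strand, chr12:41330395-41330470 on the plus strand, chr3:129549150-129549219 on the plus strand and chr19:50743270-50743395 on the minus strand. The Irf7 match is on the reverse strand, the 2 matches of Oas1a overlap, and Psmb10 has 2 separate matches. Mx2 and Serpina6 are named only.

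Among genes that rose, Acta1, the α-actin of skeletal muscle, led with 1863, 975, 1280, 1532 and 1176 at 24 h and 5014, 3776, 4936, 5864 and 4863 at 48 h. The lowest 48 h well was 2 times the highest 24 h well, and the rise was 3.64-fold (log2 1.86, SE 0.18, limma adjusted p = 5.64e-09). Actin genes are alike in sequence, and binding of other actin RNA to this probe set was not tested. Serpine2, the secreted thrombin inhibitor protease nexin-1, went from 556, 496, 747, 569 and 539 to 1674, 1469, 1900, 1773 and 2036. It rose 3.06-fold (log2 1.61, SE 0.10, limma adjusted p = 1.38e-13), by 1.20 at 500 µM and by 1.09 at 5000 µM. Ldhb, the lactate dehydrogenase subunit of heart, which adult hepatocytes carry little of, rose from 1661, 1671, 1360, 1800 and 1558 to 3998, 3963, 4095, 4193 and 3732. The wells of each time agreed closely with each other, and the rise was 2.49-fold (log2 1.32, SE 0.08, limma adjusted p = 7.20e-14).

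Scd2, the stearoyl-CoA desaturase of fetal rather than adult liver, gave 622, 719, 505, 653 and 788 at 24 h and 2006, 1672, 1824, 1732 and 1847 at 48 h. It rose 2.79-fold (log2 1.48, SE 0.17, limma adjusted p = 1.35e-07), with 0.57, 1.04 and 0.35 in its 3 other probe sets. Slc25a4, the adenine nucleotide translocase of heart and muscle, was already bright and rose from 9015, 11732, 12127, 11067 and 12190 to 22421, 25552, 24421, 23418 and 26174. This was a 2.18-fold rise (log2 1.13, SE 0.08, limma adjusted p = 3.32e-12) with a wide gap between the times. Tgfb2, a transforming growth factor that acts on matrix and growth, rose by 1.20, Dpp7, a vesicular dipeptidase, by 1.35, and Tsx by 1.57 and Clec14a, known from endothelium, by 1.15. All 4 were higher in both dosed series over the same interval and with the covariate. A second Tgfb2 probe set gave 0.58 and was not called. Actr2-ps1 and Renbp, also among the 10 largest called rises without overlap, were called without the covariate only, at 1.26 and 1.23 against 0.18 and 0.52 with it.

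Several progenitor-type genes rose. Of 30 genes of fetal and progenitor liver on the array 10 were bright enough to be tested. Of the 10, 5 were higher and 1, Igf2bp3, was lower, beside 13.4% and 19.1% of all genes. The median was 0.27. With the covariate 3 were higher and none lower, beside 2.34% and 2.81%. The 5 that were higher without the covariate were called higher at both doses as well, as were 1.21% of all genes. Epcam, the adhesion molecule of hepatic progenitors and bile ducts, gave 8754, 9016, 9225, 9302 and 9271 at 24 h and 13419, 13152, 14080, 12814 and 13762 at 48 h. The spread between wells was small beside the step (log2 0.56, SE 0.05, limma adjusted p = 5.57e-09). Ggt1, γ-glutamyl transferase, which is high in fetal liver, rose by 0.73. Sox4 rose by 0.47 (its 6 other probe sets gave -0.47 to 2.02, and their mean was not called) and Tnfrsf12a, the TWEAK receptor, by 0.35 without the covariate only. Afp, the classical fetal plasma protein, gave 2254, 2040, 2217, 2218 and 2463 at 24 h and 2622, 2473, 2501, 2512 and 2559 at 48 h. Its times did not overlap, but the change of 0.18 (SE 0.09, limma adjusted p = 0.134) did not pass the test. Some calcium-binding and membrane-organising genes also moved up in vehicle. Of 16 S100, annexin and tetraspanin genes 8 were higher and 2 lower, beside 13.4% and 19.1% of all genes. With the covariate 4 were higher and 1 lower, beside 2.34% and 2.81%. Cd9 rose by 0.79 and S100a11 by 0.70. At 500 µM 2 of the 16 were higher and 2 lower, beside 11.7% and 7.87% of all genes. At 5000 µM 3 were higher and 7 lower, beside 10.8% and 16%.

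Of 32 fatty acid synthesis genes 5 were higher and 7 lower, shares near the 13.4% and 19.1% of all genes, and 3 and none with the covariate. Pnpla3, a lipid droplet hydrolase, rose by 0.93 and Thrsp, which promotes lipogenesis, by 0.75, while Fads2, a desaturase, rose by 0.73 only without the covariate. Of 48 targets of PPARα and fatty acid oxidation genes 21 were higher and 4 lower with a median of 0.16, and 6 and none with the covariate. Cd36, the fatty acid translocase, led with 2326, 3181, 3565, 4527 and 4625 at 24 h and 8364, 8883, 8854, 11295 and 14463 at 48 h. The times were apart and the rise was 2.87-fold (log2 1.52, SE 0.20, limma adjusted p = 1.19e-06), but it shrank to 0.73 with the covariate. Cyp4a1, the fatty acid ω-hydroxylase, rose by 0.66, Cidea, a lipid droplet protein, by 0.52, and Vnn1, a pantetheinase, by 0.43, all also with the covariate. Ehhadh, a peroxisomal enzyme, changed by 0.19 (SE 0.12) and was not called, and Cpt1a, which admits fatty acids to mitochondria, fell by 0.40 without the covariate only.

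**Figure D3:**
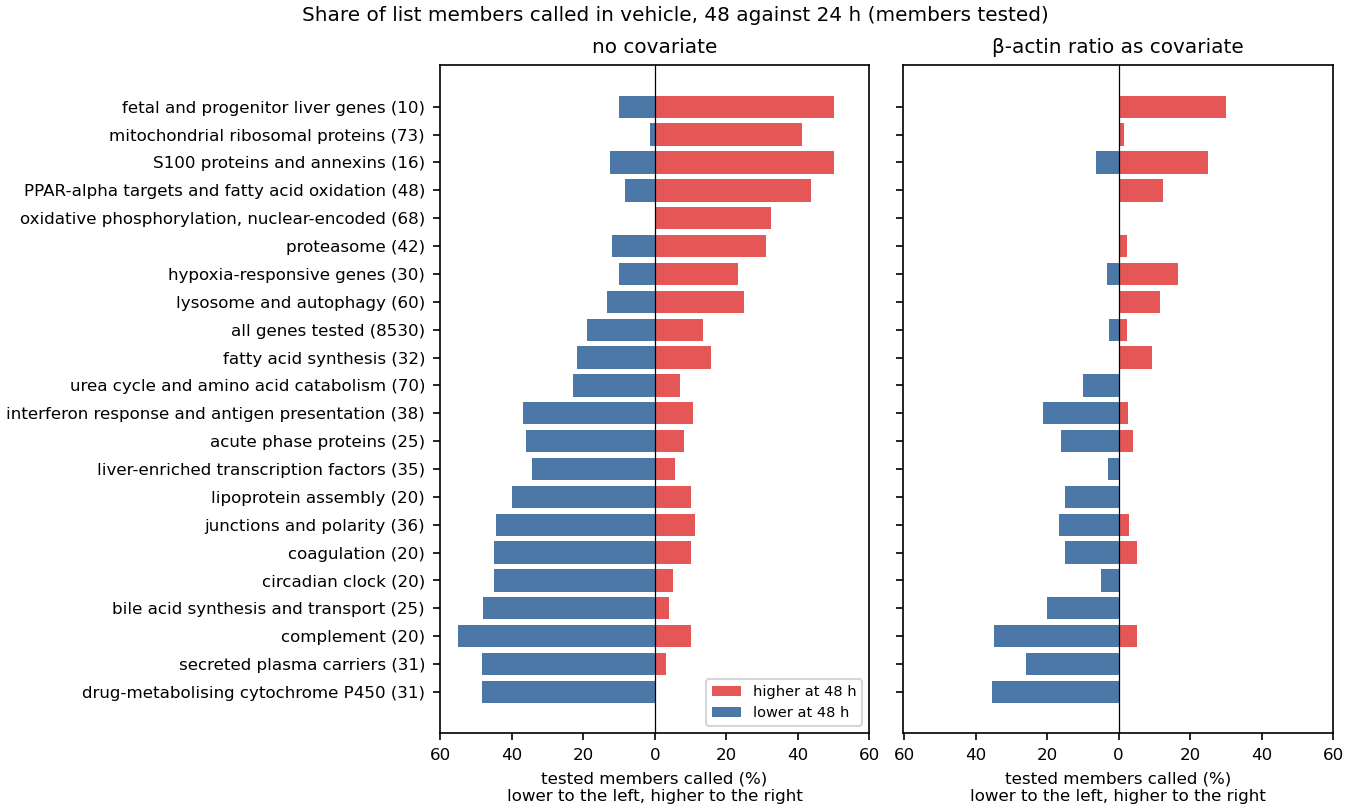
Share of the tested members of 21 gene lists, and of all 8530 genes, called higher (red, right) or lower (blue, left) at 48 h in vehicle, without a covariate (left panel) and with the β-actin ratio as a covariate (right panel); numbers tested are in brackets. P450 members stay on the left in both panels, 15 and then 11 of 31, whereas the 22 oxidative phosphorylation calls of the left panel are absent from the right.

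Several groups lost most of their calls with the covariate. Genes of the nuclear-encoded respiratory chain were higher in 22 of 68 and lower in none, beside 13.4% and 19.1% of all genes, with a median of 0.12. None was called with the β-actin covariate, where the median was 0.08. With the GAPDH covariate, which called 3.79% of all genes higher, 4 were higher. The count of 22 without a covariate became 10 without replicate 1 of 24 h and 30 without replicate 3 of 24 h. It was 13 to 15 without replicates 2 or 4 of 24 h or 1, 2 or 3 of 48 h, each left out in turn. At 500 µM, where the ratio was higher at 48 h, 1 of the 68 was higher and 11 lower, and at 5000 µM 37 were higher and 1 lower. Over all genes 11.7% were higher and 7.87% lower at 500 µM, and 10.8% and 16% at 5000 µM. Mitochondrial ribosomal proteins were higher in 30 of 73 and lower in 1, and with the covariate 1 was higher. Their median was 0.16, and 0.06 with the covariate. At 500 µM 4 were higher and 13 lower, and at 5000 µM 5 were higher and 3 lower, with a median of 0.04. Without replicate 1 of 24 h their count of 30 became 18. Proteasome subunits were higher in 13 of 42 and lower in 5, and 1 and none with the covariate. Their medians were 0.13 and -0.01.

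Other groups fell, also with fewer calls under the covariate. Genes of bile acid synthesis and transport were lower in 12 of 25 and higher in 1, a median of -0.26. With the covariate 5 were lower and none higher, a median of -0.18. At 500 µM 2 were lower and 4 higher, beside 7.87% and 11.7% of all genes. Abcb11, the canalicular bile salt export pump, gave 27438, 28374, 28376, 26175 and 28699 at 24 h and 17740, 19127, 18429, 17398 and 17722 at 48 h. The step was clean (log2 -0.62, SE 0.10, limma adjusted p = 1.80e-05) and -0.32 with the covariate, while the gene rose by 0.28 at 500 µM and 0.43 at 5000 µM. Slc10a1, the uptake transporter NTCP, fell by 0.55, and the synthesis enzymes Acox2 and Akr1d1 by 0.66 and 0.68, also with the covariate, whereas Cyp39a1 had a change of -1.08 that missed with it (adjusted p = 0.0579). Cyp7a1, the rate-limiting enzyme, changed by -0.51 (limma adjusted p = 0.0405), with overlapping times, and was not called with the covariate, with arrays centred, with quantile normalization, or without any one of replicates 2, 3 and 5 of 24 h and 3, 4 and 5 of 48 h. Cyp8b1 changed by -0.13 (SE 0.10) and was not called. Junction and polarity genes were lower in 16 of 36 and higher in 4, and 6 and 1 with the covariate. The shares over all genes in vehicle were 19.1% lower and 13.4% higher, and 2.81% and 2.34% with the covariate. Circadian genes were lower in 9 of 20 and higher in 1, and 1 remained with the covariate, Clock, the activator of the loop, which fell by 0.56. Cry2, a repressor, fell by 0.46 without it only, and was not called with the mean of its probe sets (-0.12). For all these groups the part of the ratio and the part of time cannot be told apart.

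The same interval in dosed wells gave 3 separate sets of arrays, with no array shared. At 500 µM the β-actin ratio went the other way, from 1.61 ± 0.33 to 1.86 ± 0.12, and at 5000 µM from 1.37 ± 0.22 to 1.21 ± 0.05. Of the 221 genes lower in vehicle with and without the covariate 80 (36.2%) were also called lower at 500 µM and 19 (8.60%) higher, and of the 178 higher ones 78 (43.8%) were higher and none lower. Of all 1625 genes lower in vehicle 121 (7.45%) were lower at 500 µM and 355 (21.8%) higher, and of all 1145 higher ones 142 (12.4%) were higher and 145 (12.7%) lower. The background shares at 500 µM were 11.7% of genes higher and 7.87% lower. At 5000 µM 130 of the 221 were lower and 98 of the 178 higher, beside backgrounds of 16% and 10.8%. The covariate fit took in the dosed arrays as well, so the 221 and 178 genes were not chosen independently of them. Genes whose change tracked the ratio were less likely to be kept, and at 500 µM the ratio went the other way. Shares above those of all called genes can therefore follow from the choice, and are not a separate replication. In all, 200 genes (2.34%) were called in one direction in all 3 sets, 103 higher (1.21%) and 97 lower (1.14%). By the size of the smallest of the 3 changes the 5 leading falls were of Serpina6, Serpina3c, Cyp2c13, Cyp1a2 and Mx2, and the 5 leading rises of Scd2, Tsx, Serpine2, Tgfb2 and Clec14a. All 24 h signals of Scd2 at both doses, of Clec14a at 5000 µM and of Tgfb2 at 500 µM lay below 469, the mean of the dimmest gene tested. So did the 24 h means of Tsx at 5000 µM (449) and of Tgfb2 in vehicle (451) and at 5000 µM (418). The sizes of those rises, and so their ranks, are less sure.

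**Figure D4:**
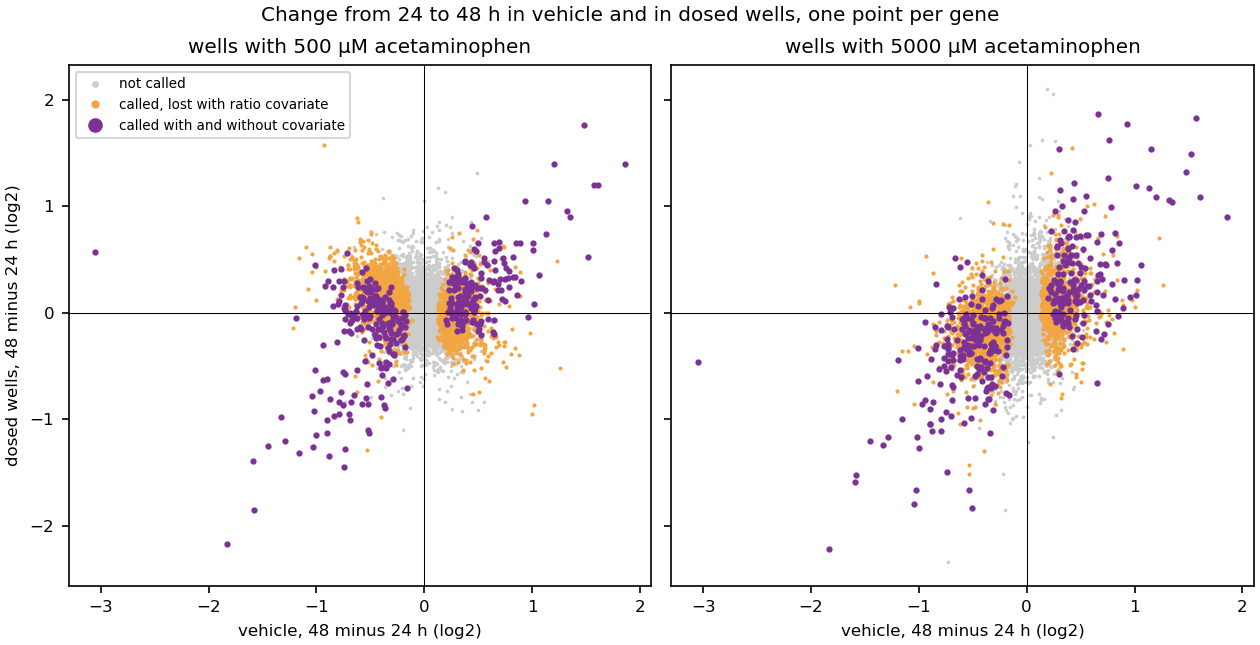
Change from 24 to 48 h of 8530 genes in vehicle wells (horizontal axis, log2) against the change over the same interval at 500 µM (left) and 5000 µM (right), with genes called with and without the β-actin covariate in purple and those called only without it in orange. At 500 µM 78 of the 178 purple genes that rose in vehicle were also called higher, whereas of all genes that fell in vehicle 355 were called higher there. The covariate fit that chose the purple genes also used the dosed arrays.

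The difference between the vehicle and dosed intervals was tested directly. At 500 µM against vehicle 3126 genes (36.6%) differed in their change, and 3 did with the β-actin covariate. With the GAPDH covariate limma called 0, and 1128 genes (13.2%) had an unadjusted p under 0.05. At 5000 µM 1399 genes (16.4%) differed, and 821 with the β-actin covariate. Of the 10 largest falls in vehicle among called genes whose times did not overlap, 4 differed at 500 µM. These were Bcar1 by 3.62, C8h15orf39 by 1.67, Dstl1 by 1.14 and Cyp3a2 by 0.34. At 5000 µM 1 of the 10 differed, Bcar1, by 2.59. C8h15orf39 was called in vehicle without the covariate only (-0.46 with it). Its 48 h signals there lay below 469, the mean of the dimmest gene tested. Cyp2c11, outside those 10, changed by -0.63 more at 5000 µM than in vehicle (limma adjusted p = 0.00966). For Cyp2c13 the 3 changes were -1.59, -1.39 and -1.59 in vehicle and at the lower and the higher dose, and for Cyp1a2 -1.45, -1.25 and -1.20, with no difference called at either dose. Bcar1, a docking protein of focal adhesions, stood apart. It gave 1492, 1110, 1129, 1119 and 1427 at 24 h and 155, 157, 154, 170 and 120 at 48 h in vehicle, the largest change of any gene tested (8.29-fold, log2 -3.05, SE 0.48, limma adjusted p = 2.46e-05). Yet the 48 h signals were below 469, the mean of the dimmest gene tested, and at 500 µM it changed by 0.57. Mknk2, a kinase of translation initiation factors, fell by 0.62 in vehicle, without the covariate only, and rose by 0.89 at 500 µM.

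**Figure D5:**
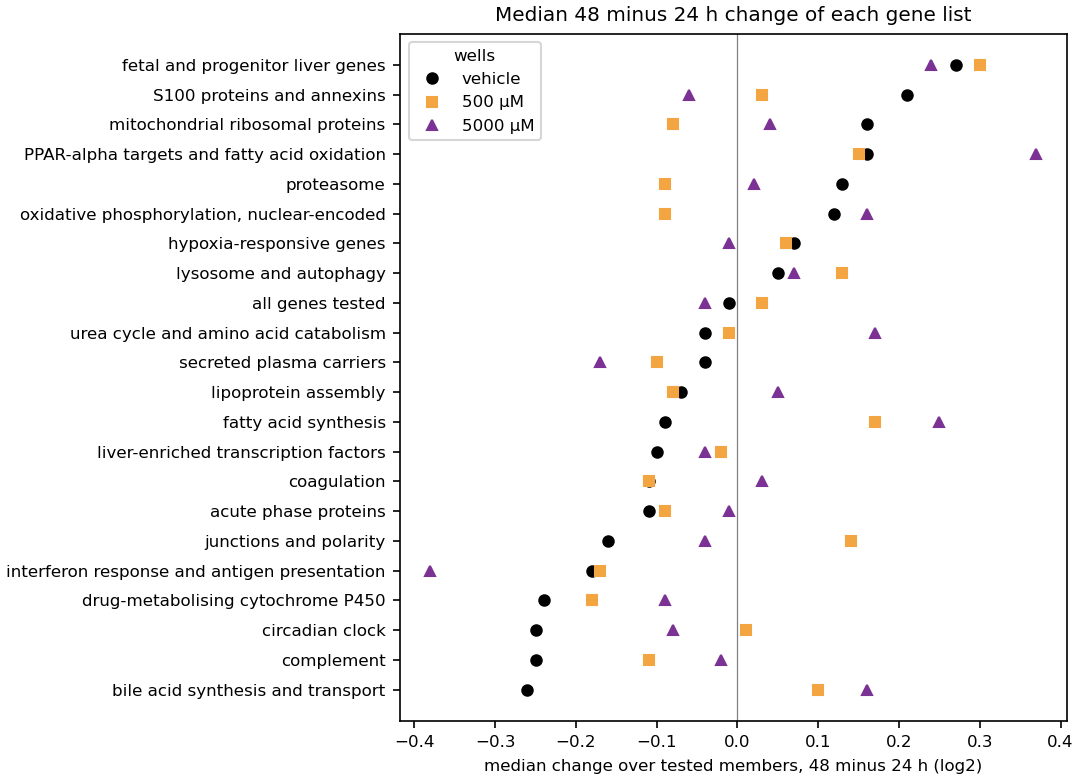
Median 48 minus 24 h change (horizontal axis, log2) over the tested members of 21 gene lists and over all genes in vehicle wells (circles) and with acetaminophen at 500 µM (squares) or 5000 µM (triangles). The P450 and interferon medians are negative in all 3 series, while bile acid genes go from -0.26 in vehicle to 0.10 and 0.16 in dosed wells.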

How the data were processed

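The authors deposited linear MAS5 signal intensities for 31099 probe sets. MAS5 is named without a version in the submitters' processing notes, and the trimmed means of 1500.55 to 1500.66 show a common scaling. Signals were used on the log2 scale with no further scaling. The platform annotation gave 1 symbol for 20826 probe sets, several for 436 and none for 9780, and 57 controls were left out. Each of 14217 genes took its brightest probe set, and the brightest 60% were tested. One limma 3.58.1 model (R 4.3.3) with 6 group means over 30 arrays (24 residual degrees of freedom, eBayes with trend) gave all contrasts; the calling threshold was an adjusted p (Benjamini-Hochberg) of 0.05. Depth does not apply to arrays, whose number limits the precision. On simulated data the vehicle contrast recovered 100% of 2-fold changes among 8530 genes. The simulated noise was independent between arrays and held no effect of the 3'/5' ratio. The figure thus says nothing of calls that depend on the ratio, nor of smaller changes, which most calls here were. Named genes were the 10 largest changes each way among called genes whose 2 times did not overlap. For these the lack of overlap was a condition of choice. Also named were up to 8 called and all key members of each of 54 lists, and the 10 largest changes each way shared by all 3 series. The 6 largest differences each way between series and the 10 largest changes each way with the covariate were added. The members and lists were chosen with earlier results of these data known. Promoters come from RefSeq (GRCr8). Alternatives are given in the closing section.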

Additional observations from a re-analysis of the deposited data

Results flagged for a closer look

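Among 56 groups of 5 arrays, where chance sets about 1 in 20 apart, 3 held a well far from the others. For Dstl1 at 24 h replicate 1, at 2626, took 0.794 of the group's range on the log2 scale as its gap to the next well. For Serpina3l at 24 h replicate 2, at 18158, took 0.918, within a narrow range. For Bcar1 at 48 h replicate 5, at 120, took 0.727. All 3 are above Dixon's 95% limit for 5 samples.

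The time change differed between 500 µM and vehicle, by limma's test of the difference, for these genes among others, given as the change at 500 µM minus that in vehicle. Bcar1 differed by 3.62, Ptov1 by 2.50, Plekhm2 by 1.72, C8h15orf39 by 1.67, Nfic by 1.59 and Mknk2 by 1.51. In the other direction Entr1 differed by -1.95, Tti2 by -1.89, Actr2-ps1 by -1.78, Cds2 by -1.41, Mug1 by -1.38 and Hdac1 by -1.29. The mean β-actin ratio was lower at 48 h in vehicle and higher at 48 h at 500 µM, where the times overlapped, and its part in these values cannot be told apart from that of the dose. Some signals at 500 µM lay below 469, the mean of the dimmest gene tested. Ptov1 gave 694, 419, 226, 179 and 387 at 24 h, and Tti2 gave 145 to 395 at 48 h. The sizes of such differences are less sure.

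Between 5000 µM and vehicle the differences above 0 included those of Bcar1 at 2.59, Ehhadh at 1.92, Sult2a6 at 1.81, Slc6a13 at 1.54, Olr59 at 1.52 and Hao2 at 1.48. Those below 0 included S100a6 at -1.66, Cyp2c12 at -1.61, Ndrg1 at -1.41, Ifitm3 at -1.32, RT1-CE5 at -1.31 and Wfdc21 at -1.29. At 5000 µM all signals of Olr59 and the 24 h signals of Sult2a6 lay below 469, the mean of the dimmest gene tested. Cyp2c12 gave 505, 285, 282, 503 and 49.3 there at 48 h. The sizes of these differences are less sure. Ehhadh went from 1957 ± 312 to 2219 ± 224 in vehicle, and from a mean of 1808 to 7836 at 5000 µM.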

How the results depend on the processing

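The labels give no replicate numbers, but each run of 6 consecutive array numbers in the titles holds 1 array of every group, in the order used here for replicates 1 to 5, and what a run shares is not stated. Vehicle arrays of one run correlated in their deviations from the group means at -0.10 to 0.27 over genes, and 3 of 5 arrays of 24 h matched their own run best, so the runs were not taken as pairs. With the run as a replicate block, an alternative chosen after seeing the data, 2983 genes changed in vehicle, and 3363 and 1634 differed at 500 and 5000 µM, and all 88 called genes in the text kept their call. With the replicate block and the β-actin covariate together the counts were 118, 0 (570 at an unadjusted p under 0.05, limma) and 571, 46 of the 88 kept their call, and the change of Por was 0.04. Cyp2c13, Cyp1a2, Cyp3a2, Serpina6, Serpina3c, Irf7, Acta1, Serpine2, Ldhb and Epcam were among the 46, and Hnf4a (adjusted p = 0.135), C3 (0.104) and Plat (0.467) were not. The count of 2770 genes stayed between 2233 and 2914 under other scaling, filters, probe set rules and fits, and between 2285 and 2658 with one array left out. It was 440 with the β-actin covariate, 755 with the GAPDH covariate, 1190 with the side of the ratio gap as a block and 1211 on arrays below the gap. For the difference between 500 µM and vehicle, 3126 genes became 3, 0 and 682 with the 2 covariates and the block, and 2642 to 3226 with one array left out. For 5000 µM, 1399 became 821 and 892 with the covariates, and 1105 to 1725 with one array left out. The ratio difference was -0.283 for β-actin 3' over middle and -0.124 for GAPDH. The change of Por was 0.06 with the mean of its probe sets. The cause was not tested. Of 88 called genes in the text, 71 kept their call with the β-actin covariate, 77 with the GAPDH covariate, 82 with the mean of probe sets and 86 with any one vehicle array left out. The split of directions also moved with the mean of all probe sets, to 1137 higher and 1096 lower.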

Other observations

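Some stress and lysosome genes rose in vehicle wells. Of 30 hypoxia-responsive genes 7 were higher and 3 lower, and 5 and 1 with the β-actin covariate. The shares over all genes were 13.4% higher and 19.1% lower, and 2.34% and 2.81% with the covariate. The 3 falls became 1 without replicate 3 of 24 h or 2 of 48 h. Adm, the vasodilator peptide adrenomedullin, gave 8557, 4657, 7608, 7049 and 6275 at 24 h and 15041, 13828, 13647, 12235 and 10571 at 48 h, with no overlap (log2 change 0.96, SE 0.12, limma adjusted p = 4.87e-07). Ndufa4l2, a mitochondrial protein, rose by 0.90 and Ddit4, an inhibitor of mTOR signalling, by 0.46. These 3 were also called with the β-actin covariate, and none of them was called over the same interval at 500 or 5000 µM. Of 60 lysosome and autophagy genes 15 were higher and 8 lower, and 7 and none with the covariate. Gpnmb, a lysosomal membrane glycoprotein, rose by 0.89, Rragd, a GTPase of nutrient sensing, by 0.85, Neu1, a sialidase, by 0.68 and Cd63 by 0.53.

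Of 70 genes of the urea cycle and amino acid breakdown 16 were lower and 5 higher, and 7 and none with the covariate. The share of falls is near the 19.1% of all genes. The 5 became 2 without replicate 1 or 2 of 24 h or 2 or 3 of 48 h, and 3 without replicate 1 of 48 h. Hal, which degrades histidine, fell from 1612, 1534, 1439, 1610 and 1848 to 772, 781, 780, 808 and 847, with no overlap (log2 -1.01, SE 0.09, limma adjusted p = 2.24e-09). Aass, the first enzyme of lysine breakdown, fell by 0.75. The urea cycle enzymes Cps1 and Arg1 had changes of 0.06 (SE 0.08) and 0.00 (SE 0.07) and were not called.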
